A study of Homo sapiens with 6 samples.

Results

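Integrin subunits, the transmembrane receptor chains through which cells hold to the extracellular matrix, were read in T24 bladder cancer cells with and without overexpression of RNF112. The members were the 10 genes whose symbols name subunits typical of epithelial tumor cells, among 23152 genes in the count table: the alpha subunits ITGA2, ITGA3, ITGA5, ITGA6 and ITGAV and the beta subunits ITGB1, ITGB3, ITGB4, ITGB5 and ITGB6. They were taken by symbol, with no measured value in the rule. However, the members and the lists of related genes used below were chosen with earlier results of these data known. The shares called in them are therefore descriptive. Of these genes, 9 had enough reads to be tested and 2 passed the test (22.2%, beside 18.1% of all genes tested). ITGA5, the alpha chain of the main fibronectin receptor, was higher in the cells overexpressing RNF112. ITGB4, the beta chain that anchors hemidesmosomes, was lower. ITGB6 held at most 7 reads in any sample.

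An integrin works as a pair of 1 alpha and 1 beta chain, and the pair sets which matrix protein is bound. ITGB1 is the partner of ITGA2 in a collagen receptor, of ITGA3 in a laminin receptor, of ITGA5 in the fibronectin receptor and of ITGA6 in another laminin receptor. ITGAV joins ITGB1, ITGB3, ITGB5 or ITGB6 to bind vitronectin, fibronectin and latent TGF-beta, and ITGB4 joins only ITGA6, to fix epithelial cells to the laminin of the basement membrane through hemidesmosomes. Chains left without a partner are largely held back in the cell, so the level of a messenger RNA is not the level of a receptor at the surface.

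The series held 6 RNA sequencing samples of T24, an established human bladder cancer cell line grown as 1 line, with 3 labelled vector (control vector) and 3 labelled oeRNF112 (overexpression of RNF112, a RING-type ubiquitin ligase). No other treatment or time distinguished the groups in the labels. The protocol text in the labels speaks of transfecting siRNA, whereas the treatment labels give overexpression. RNF112 itself was counted 27, 19 and 24 times in vector and 29753, 36963 and 31712 times in oeRNF112, where the counts may include reads of the introduced construct.

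The sequence just upstream of the genes is shown for ITGA5, the member that was higher, and for ITGA6, whose groups also lay apart without passing the test. RefSeq (GRCh38.p14) gave start-site windows for 7 of the 10 members, 12 windows in all, each from 250 bases before to 50 bases after a start. ITGA3, ITGB3 and ITGB4 had no entry. Each stretch runs from 120 bases before to 20 bases after a start, 5′ to 3′ on the strand of the gene. It covers chr12:54419247-54419386 on the minus strand for ITGA5 and chr2:172427216-172427355 on the plus strand for ITGA6. Capitals mark an AP-1 motif (TGANTCA) in ITGA5 and a palindromic E-box (CACGTG) in ITGA6. ITGA6 has another start in the table (stretch chr2:172427466-172427605, not printed), whose window holds no E-box and 3 GC boxes (GGGCGG).
ITGA5: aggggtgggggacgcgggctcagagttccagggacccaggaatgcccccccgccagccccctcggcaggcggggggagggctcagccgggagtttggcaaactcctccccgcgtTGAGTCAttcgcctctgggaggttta
ITGA6: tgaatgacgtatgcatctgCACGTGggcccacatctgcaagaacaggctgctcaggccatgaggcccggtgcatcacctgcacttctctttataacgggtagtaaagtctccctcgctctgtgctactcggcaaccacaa
Both strands were searched for these letters and for the GC box (GGGCGG). The AP-1 motif was found in 1 of the 12 member windows and in 7.71% of 35116 promoters of this length. The E-box was found in 1 of 12 and in 7.26% of all promoters. The GC box was found in 8 of the 12 windows and in 45% of all promoters. These windows belong to ITGA2, ITGA5, ITGA6, ITGB1 and ITGB5. ITGA6 and ITGB5 each gave more than 1, and the ITGA6 windows overlap and share a GC box, so the windows are not independent. These matches describe letters in the windows, and no binding was measured.

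Total counts were between 40029547 and 41259569 per sample, so a count of 0 allows up to 3 reads, or a CPM (a count scaled to the library total) between 0.0727 and 0.0749, for counting error only. edgeR's filter on low counts left 14467 genes, and a gene was called where its quasi-likelihood test gave a Benjamini-Hochberg adjusted p under 0.05. Of the genes tested, 18.1% were called, 9.97% higher and 8.14% lower in oeRNF112, and the groups did not overlap for 36.8%. With library totals in place of TMM factors the split was 2020 higher to 659 lower, against 1442 to 1178, and the all-gene median of the log2 fold change went from 0.00 to 0.10. More genes had any reads in the oeRNF112 samples (19488 to 19531 per sample) than in the vector samples (18733 to 18773). The part of this in genes called higher at low levels, such as PDGFRA and ITGAX, was not tested. The labels do not say that the 3 samples of a group came from separate cultures, so the p-values measure the spread between these samples, which may be technical. The keratins KRT7, KRT8, KRT18 and KRT19 of simple epithelium were abundant, with mean RPKM (read counts divided by gene length and library size) in vector of 521, 604, 744 and 118. The epithelial adhesion gene CDH1 had 0, 0 and 0 counts in vector and 1, 1 and 0 in oeRNF112. EPCAM, another epithelial marker, had 94, 66 and 99 and then 143, 183 and 165. Of the mesenchymal markers, the intermediate filament gene VIM had a mean RPKM of 1961 in vector and CDH2 one of 27.2. COL1A2, DCN, LUM and FAP had at most 3 counts in any sample. Markers of both types were thus partly present and partly near 0. The summed CPM of 12 epithelial and urothelial markers was 3586 to 4609 in vector and 2771 to 3316 in oeRNF112, most of it KRT7, KRT8 and KRT18. That of 12 mesenchymal markers was 4176 to 4754 and 3411 to 4291, most of it VIM (mean CPM 4375 and 3794). That of 9 leukocyte markers was 36.3 to 40.2 and 59.6 to 76.5, most of it the lysosomal gene CD68. That of 6 endothelial markers was 0.126 to 0.625 and 0.414 to 0.661. Single markers did not all follow the epithelial and mesenchymal sums. In edgeR's test KRT7, KRT18, CDH2 and ACTA2 were called lower. EPCAM (log2 fold change 0.84, adjusted p = 0.0208) and PDGFRA (2.36, 0.0194), both at low levels, were called higher. PTPRC, the pan-leukocyte marker, had 54, 37 and 40 counts and then 33, 24 and 26, while PECAM1, an endothelial marker, had at most 8 in any sample. The deposited counts hold no gene at 0 in all samples, so a marker without any reads would have no row. Rows were found for 12 of 14 epithelial and urothelial markers, without KRT5 and UPK1B. They were found for 9 of 10 leukocyte markers, without MS4A1, and for 6 of 7 endothelial markers, without CLDN5. The part of the marker shifts in the integrin results was not tested. Fewer cells of a type and less RNA per cell cannot be told apart in such bulk samples.

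Per gene length the members covered a wide range of levels. ITGA3 had a mean RPKM of 249 ± 11.9 in vector and ITGB1 one of 226 ± 37.4 (SD, n = 3), both above 99% of the genes in the table when ranked by RPKM over all samples (percentiles 99.1 and 99.1). They were followed by ITGA6 (53.8 ± 7.97), ITGA5 (34.6 ± 2.22), ITGB5 (33.1 ± 0.555), ITGA2 (26.3 ± 9.18) and ITGAV (21.2 ± 6.41), by mean RPKM in vector. ITGB3 (7.55 ± 1.60) and ITGB4 (4.19 ± 0.578) were lower again, and ITGB6 was at 0.0104, 0 and 0.0160. In this order ITGA3 and ITGB1, ITGA5 and ITGB5, ITGB5 and ITGA2, and ITGA2 and ITGAV had overlapping ranges of RPKM over the vector samples. In oeRNF112, ITGA5 at 59.6 ± 1.83 stood clear of ITGB5 at 34.0 ± 1.14, and ITGA2 at 38.6 ± 8.86 overlapped ITGB5 there.

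**Figure D1:**
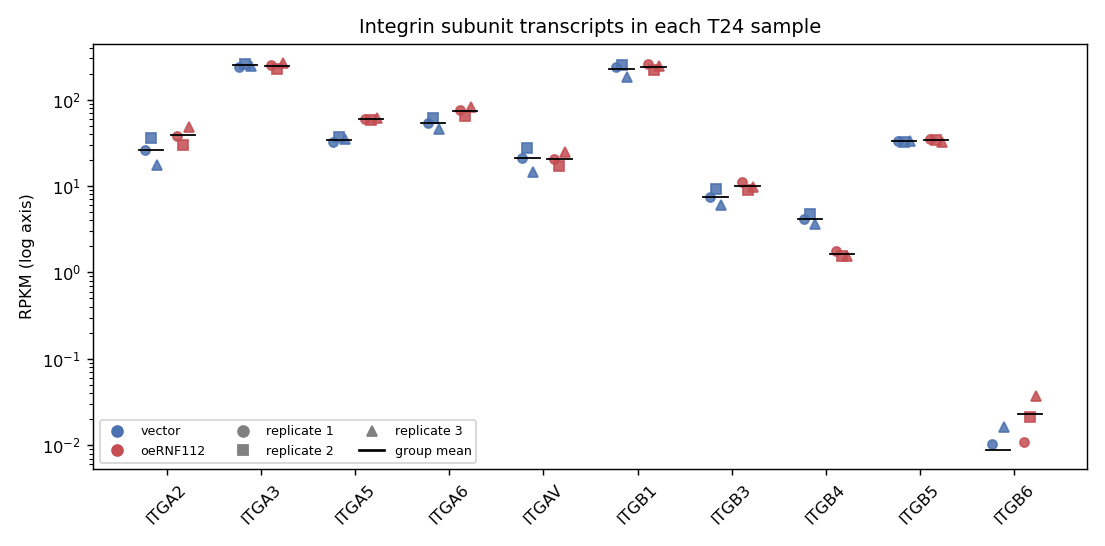
Deposited RPKM (log axis) of the 10 integrin members in each of the 3 vector and 3 oeRNF112 samples, with 1 point per sample and a bar at the group mean. ITGA3 and ITGB1 sit at the top, the groups separate most clearly for ITGA5 (34.6 against 59.6) and ITGB4 (4.19 against 1.63), and the ITGB6 value of 0 in vector 2 cannot be drawn on this axis.

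The genes lie apart in the genome. In GRCh38.p14 coordinates of the RefSeq annotation, ITGA5 spans chr12:54395261-54419266 and ITGB4 spans chr17:75721459-75757818. ITGA6 (chr2:172427336-172506459), ITGAV (chr2:186590056-186680901) and ITGB6 (chr2:160099671-160200272) are on the long arm of one chromosome, and ITGA3 (chr17:50056110-50090481) and ITGB3 (chr17:47253827-47313743) share a chromosome with ITGB4. ITGB1 (chr10:32900318-32958230), ITGA2 (chr5:52989352-53094779) and ITGB5 (chr3:124761948-124901418) are each alone. The values are counts over a whole gene, so neither exons nor splice forms were told apart.

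ITGA5 was the only member called higher. It had 5745, 6410 and 6071 counts in vector against 10280, 10126 and 10721 in oeRNF112. The groups were far apart, and neither was widely spread. Its TMM-scaled CPM went from 154 ± 7.96 to 249 ± 3.57 (SD, n = 3). The log2 fold change was 0.69 (standard error 0.0805, 95% interval 0.51 to 0.87), 1.62-fold, with an adjusted p = 0.000656 in edgeR's quasi-likelihood test. The call held in all 10 alternative analyses that kept every sample and when each of the 6 samples was left out. In GENCODE v29 the antisense genes AC079313.1 and AC079313.2 each overlap ITGA5 on the opposite strand by 24200 bases. Neither has counts of its own here. Whether the counting used strand is not given in the sources used here, so some reads counted for ITGA5 may be theirs.

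ITGB4 was the only member called lower. It had 1185, 1324 and 999 counts in vector and 490, 435 and 431 counts in oeRNF112. The lowest vector sample held more than any oeRNF112 sample by a wide margin. Its TMM-scaled CPM went from 29.7 ± 3.62 to 10.9 ± 0.856 (SD, n = 3), to 36.6% of the vector level. The log2 fold change was -1.45 (standard error 0.120, 95% interval -1.72 to -1.18, adjusted p = 0.000135 in edgeR's quasi-likelihood test), and the call held in the same 10 alternatives and 6 leave-one-out analyses. Its gene overlaps the galactokinase gene GALK1, on the opposite strand, by 6225 bases in GENCODE v29. GALK1 had 1254, 1017 and 1282 counts in vector and 954, 1202 and 905 in oeRNF112 (log2 fold change -0.30 with a standard error of 0.143, adjusted p = 0.179 in edgeR's test), with overlapping groups. Whether the counting used strand is not given in the sources used here, so reads of the shared stretch may belong to either gene.

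ITGA6, the alpha chain that pairs with ITGB4 and with ITGB1, had 13362, 15208 and 11252 counts in vector and 18265, 15855 and 20414 in oeRNF112. The groups did not overlap, although the lowest oeRNF112 sample was close to the highest vector sample. The log2 fold change of ITGA6 was 0.37 (standard error 0.119, 95% interval 0.11 to 0.64), and its adjusted p = 0.0549 in edgeR's quasi-likelihood test missed the threshold. It passed under 7 of the 10 alternatives that kept every sample, with adjusted p from 0.00747 to 0.201 over the 10. Without vector replicate 2 it also passed (adjusted p = 0.0142), as it did without oeRNF112 replicate 2 (adjusted p = 0.0296), both from edgeR.

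Of the other alpha members, ITGA2, a collagen receptor chain, had 8360, 11357 and 5515 counts in vector and 11917, 9584 and 15143 in oeRNF112. The groups overlapped, with vector 2 above oeRNF112 2, and on the log2 scale the vector samples spread over a wider range than those of any other tested member. The log2 fold change of ITGA2 was 0.46 (standard error 0.225, 95% interval -0.04 to 0.96, adjusted p = 0.183 in edgeR's test). Without vector replicate 2 its log2 fold change was 0.72 and passed the test (adjusted p = 0.0122), so vector 2 decides this call. ITGA3, the laminin receptor chain with the highest mean level, had 48602, 52352 and 49069 counts in vector and 49288, 45684 and 52568 in oeRNF112. The groups lay on top of each other, with a log2 fold change of -0.10 (95% interval -0.30 to 0.09, adjusted p = 0.437). ITGAV had 6371, 8016 and 4257 counts in vector and 5884, 5054 and 7142 in oeRNF112. All the oeRNF112 values of ITGAV lay inside the vector range (log2 fold change -0.12, 95% interval -0.55 to 0.31, adjusted p = 0.694).

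ITGB1, the beta chain shared by all 5 alpha members, had 39546, 41499 and 29755 counts in vector and 41709, 35628 and 39648 in oeRNF112. The means were almost equal, with vector 3 the lowest of the 6 samples. The log2 fold change of ITGB1 was below 0.01 in size, with a 95% interval from -0.27 to 0.27 (adjusted p = 0.999 in edgeR's test), and its sign depended on the size factors. ITGB5, a vitronectin receptor chain, had 6553, 6314 and 6504 counts in vector and 6683, 6710 and 6333 in oeRNF112, with little spread in either group. Its log2 fold change was -0.05 (95% interval -0.23 to 0.13, adjusted p = 0.676) and turned to 0.04 with library totals in place of TMM factors. ITGB3, also a partner of ITGAV, had 1842, 2203 and 1429 counts in vector and 2643, 2145 and 2339 in oeRNF112. Here vector 2 lay just above oeRNF112 2, and the log2 fold change was 0.30 (95% interval -0.01 to 0.62, adjusted p = 0.167). Without vector replicate 2 the value for ITGB3 was 0.45 and passed (adjusted p = 0.0247). ITGB6, the ITGAV partner best known for activating latent TGF-beta in epithelia, had 2, 0 and 3 counts in vector and 2, 4 and 7 in oeRNF112. Most of these values are at or near the limit of 3 reads, so no fold is given and no difference was detectable at this depth.

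Over the members, 1 of 9 tested was higher and 1 lower (22.2% called, against 18.1% of all genes tested), and for 3 of 9 the groups did not overlap (against 36.8%). Their median log2 fold change was 0.00, as was that of all genes tested. As a group the members thus had a call rate near the background, and the contrast lay in single genes: the fitted values ran from -1.45 for ITGB4 to 0.69 for ITGA5.

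**Figure D2:**
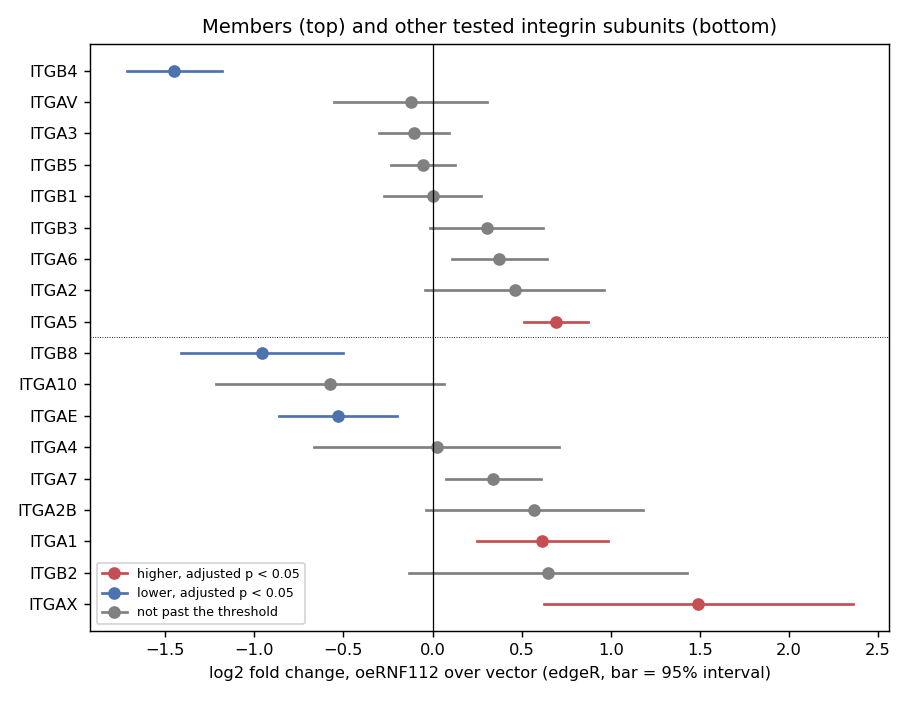
Log2 fold change of oeRNF112 over vector from edgeR, with 95% intervals, for the 9 tested members above the dotted line and the 9 other tested integrin subunits under it. Colour marks adjusted p under 0.05: among the members only ITGA5 (0.69) and ITGB4 (-1.45) are coloured. Among the others ITGB8 (-0.96) and ITGAE (-0.53) are lower, and ITGA1 (0.61) and ITGAX (1.49) are higher.

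Most members moved together from sample to sample within a group. Vector 2 was the highest vector sample for 8 of the 9 tested members, with ITGB5 the exception, and vector 3 was the lowest for 6. Among the oeRNF112 samples, replicate 2 was the lowest for 7 of 9 and replicate 3 the highest for 5. Long genes showed the same order: in the quintile of longest genes, the median log2 deviation from a gene's mean over the samples was 0.12 in vector 2 and -0.19 in vector 3, and in the quintile of shortest genes it was -0.09 and 0.17. The part of this in the members' values was not tested beyond the analysis that follows. The members' counted lengths, recovered from the RPKM, were 4019 to 7843 bases. When the trend of each sample with gene length was removed, a step added after the data were seen, ITGA6 passed (log2 fold change 0.34, adjusted p = 0.00747 in edgeR's test), ITGA5 and ITGB4 remained called (0.68 and -1.50), and ITGA2 (0.40, adjusted p = 0.0811) and ITGB3 (0.27, adjusted p = 0.0829) did not pass.

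RPKM values can be set against each other within a sample, which gives the make-up of the alpha and the beta transcripts without scaling between samples. ITGA3 held 64.2%, 61.8% and 68.6% of the summed RPKM of the 5 alpha members in vector and 56.4%, 57.4% and 54.9% in oeRNF112, lower in every oeRNF112 sample. Its own RPKM was 249 ± 11.9 in vector and 247 ± 17.9 in oeRNF112, so the lower share is not a lower level. The share of ITGA5 went from 9.01% ± 0.596 to 13.6% ± 0.882 and that of ITGA6 from 13.9% ± 0.986 to 16.8% ± 0.582 (SD, n = 3), and neither overlapped between groups. The shares of ITGA2 (6.75% ± 1.80 and 8.70% ± 1.19) and ITGAV (5.43% ± 1.23 and 4.68% ± 0.384) overlapped. Among the 5 beta members, ITGB1 held 83.2% ± 2.00 in vector and 84.0% ± 0.967 in oeRNF112, and ITGB5 held 12.4% ± 2.12 and 11.9% ± 1.01. ITGB4 was a small share in both groups, 1.55% ± 0.0631 in vector and 0.571% ± 0.0282 in oeRNF112.

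**Figure D3:**
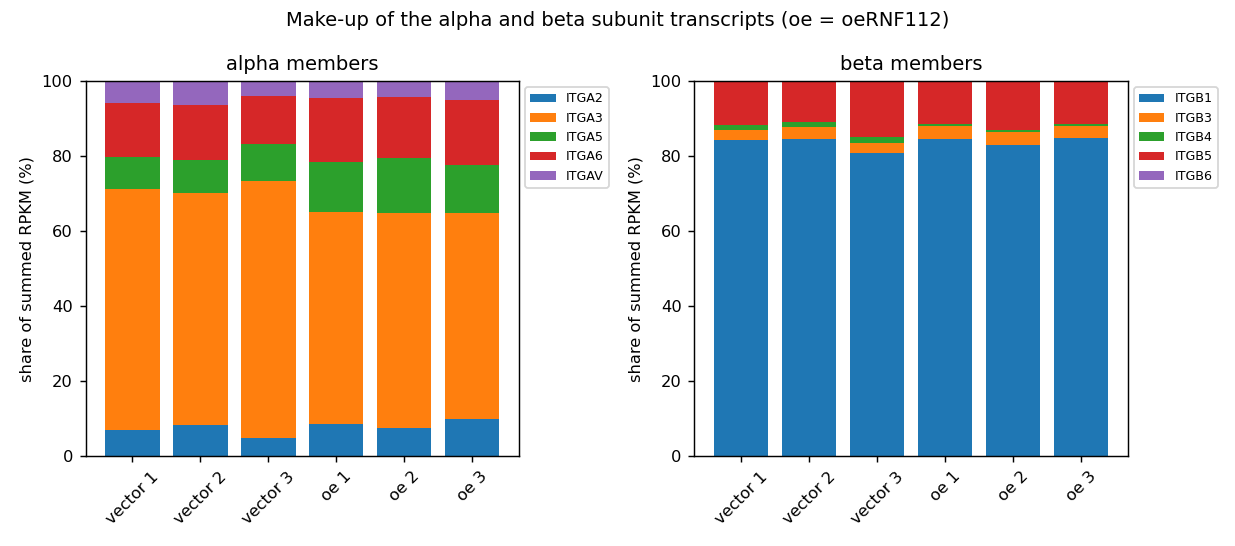
Share (%) of each member in the summed RPKM of the 5 alpha members (left) and of the 5 beta members (right), with 1 stacked bar per sample. The ITGA5 band is wider in the 3 oeRNF112 samples (mean 13.6% against 9.01%) as the ITGA3 band narrows (56.2% against 64.9%), and ITGB1 fills most of every beta bar. The mean RPKM of ITGA3 itself was 247 in oeRNF112 against 249 in vector.

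Ratios of member pairs within a sample were tested with an exact two-sided permutation test over the 6 samples, which cannot go below p = 0.1, and 7 ratios were tested. The ratio of ITGB4 to ITGB1, the competing partners of ITGA6, was 0.0176, 0.0187 and 0.0197 in vector and 0.00688, 0.00715 and 0.00637 in oeRNF112. The oeRNF112 values were all lower, by 1.45 on the log2 scale (difference -1.45, pooled SD 0.0838, exact p = 0.1, adjusted 0.233). The ratio of ITGA5 to ITGA3 was 0.135, 0.140 and 0.141 in vector and 0.238, 0.253 and 0.233 in oeRNF112, a log2 difference of 0.80 (pooled SD 0.0503, exact p = 0.1, adjusted 0.233). These values too lay apart in all 6 samples, far beyond the spread within a group. The ratio of ITGA6 to ITGA3 was 0.224, 0.236 and 0.186 and then 0.301, 0.282 and 0.316, also without overlap, with a log2 difference of 0.48 (pooled SD 0.139, exact p = 0.1, adjusted 0.233). The other 4 ratios overlapped between the groups: ITGA2 to ITGA3 (log2 difference 0.60, pooled SD 0.377), ITGB3 to ITGB5 (0.37, 0.261), ITGAV to ITGA3 (0.01, 0.318) and the 5 alpha over the 5 beta members (0.10, 0.124), with exact p of 0.2, 0.2, 1 and 0.4.

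The file also held all 16 other integrin subunits of the list, 9 of them with enough reads to test. ITGB8, a further ITGAV partner, had 2405, 3245 and 1733 counts in vector and 1466, 1038 and 1503 in oeRNF112. The groups did not overlap. ITGB8 was lower (log2 fold change -0.96, standard error 0.204) with an adjusted p = 0.0113 in edgeR's test, which missed the threshold without vector replicate 1 (adjusted p = 0.0532). ITGA1, a collagen receptor chain, had 707, 1007 and 655 counts in vector and 1216, 1096 and 1522 in oeRNF112. It was higher (log2 fold change 0.61, standard error 0.165) with an adjusted p = 0.0299 in edgeR's test, and kept its call in 2 of the 6 analyses that left out a sample, with adjusted p = 0.130, 0.0843, 0.0739 and 0.0991 without vector 1, vector 3, oeRNF112 1 and oeRNF112 3. ITGAE, the chain that holds intraepithelial lymphocytes to E-cadherin, was lower, with 1007, 896 and 1235 counts in vector and 807, 829 and 662 in oeRNF112 (log2 fold change -0.53, adjusted p = 0.0345). The call was lost without the same 4 samples (adjusted p = 0.0986, 0.0965, 0.0828 and 0.113 in that order) and in 5 of the 10 alternatives. ITGAX, a chain of myeloid cells, was higher at very low levels, with 9, 10 and 9 counts in vector and 37, 18 and 29 in oeRNF112 (log2 fold change 1.49, adjusted p = 0.0270). It too lost its call without these 4 samples (adjusted p = 0.0972, 0.0700, 0.115 and 0.0806), and the markers of leukocytes, cells known for ITGAX, are given above. Values for ITGA7 (0.34, adjusted p = 0.0756), ITGA2B (0.57, 0.176), ITGB2 (0.65, 0.226), ITGA10 (-0.58, 0.192) and ITGA4 (0.02, 0.968) did not pass. The 7 others, ITGA8, ITGA9, ITGA11, ITGAD, ITGAL, ITGAM and ITGB7, had too few reads to test. With 2 higher and 2 lower of 9 tested, 44.4% of these subunits were called, beside 18.1% of all genes tested, and with library totals the split was 3 to 1.

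ITGB1-DT, a noncoding transcript that starts upstream of ITGB1 on the opposite strand, had 212, 193 and 257 counts in vector and 402, 522 and 374 in oeRNF112. It was higher in all 3 oeRNF112 samples, 1.85-fold (log2 fold change 0.89, standard error 0.175, adjusted p = 0.00815 in edgeR's test), beside the almost equal means of ITGB1. ITGA6-AS1 had 22, 11 and 10 counts and then 11, 6 and 6, and its adjusted p = 0.197 missed the threshold. In GENCODE v29 ITGB1-DT overlaps ITGB1 by 46948 bases, while its RefSeq span (chr10:32982551-33082102) lies outside that of ITGB1. The annotation used for counting and the strand setting are not given in the sources used here. Where the counted genes overlap, reads of such a transcript and of its partner may therefore not be told apart.

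Hemidesmosomes, in which ITGA6 and ITGB4 bind laminin outside the cell and keratin filaments inside through plakins, were read from a list of 10 genes. All 10 were tested, with 3 higher and 1 lower (40% called, against 18.1% of all genes) and a median log2 fold change of 0.16. The 1 lower gene was ITGB4. Among the higher genes, LAMB3, a chain of the laminin that ITGA6 with ITGB4 binds, had 26925, 27834 and 29803 counts in vector and 42276, 41909 and 42634 in oeRNF112. The groups were well apart, with a log2 fold change of 0.50 (standard error of 0.0876, adjusted p = 0.00446 in edgeR's test). COL17A1, the collagen that spans the membrane in hemidesmosomes, was at 0.41 (0.0858, 0.0106). The laminin chain LAMA3 (-0.15, adjusted p = 0.577), the plakins PLEC (-0.01, 0.982) and DST (-0.32, 0.366), the ITGB4-binding ERBIN (0.32, 0.190) and the tetraspanin CD151 (-0.05, 0.791) did not pass. LAMB3 had a mean RPKM of 153 in vector and 231 in oeRNF112 against 4.19 and 1.63 for ITGB4.

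Of 36 listed extracellular ligands of integrins, 32 were tested, with 9 higher and 1 lower (31.2% called, against 18.1% of all genes). Their median log2 fold change was 0.00. Besides LAMB3, the laminin alpha chain LAMA1 went from 75, 74 and 109 counts to 253, 313 and 364 (log2 fold change 1.76, standard error 0.207, adjusted p = 0.000664 in edgeR's test). ICAM1, the ligand of leukocyte integrins (0.51, adjusted p = 0.00263), FBLN5, an elastic fibre protein that binds integrins through an RGD motif (1.53, 0.00854), and MFGE8, which bridges apoptotic cells to ITGAV integrins (0.43, 0.0121), were also higher. Further higher genes, named after their values were seen, were SPP1 (osteopontin), TNC (tenascin C) and CCN2, at 1.03, 0.53 and 0.39. The 1 lower gene was the basement membrane collagen COL4A2 (-0.35, adjusted p = 0.0479). FN1, the fibronectin that the pair of ITGA5 and ITGB1 binds, had a mean RPKM of 173 in vector and 142 in oeRNF112 and did not pass (log2 fold change -0.37, standard error 0.176, adjusted p = 0.168).

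Inside the cell, integrin tails are held by talin and kindlin and linked to actin through the adhesion plaque. Of 36 listed plaque proteins 35 were tested, with 4 higher and 5 lower (25.7% called, against 18.1% of all genes). Their median log2 fold change was 0.06. With library totals the split was 11 higher and 5 lower. The lower genes were PARVA, which with ILK and PINCH ties beta tails to actin (-0.85, standard error 0.0863, adjusted p = 0.000350 in edgeR's test), the tensins TNS3 (-1.06, 0.129, 0.000768) and TNS2 (-0.49, 0.0976, 0.00859), the paxillin relative TGFB1I1 (-0.80, 0.0975, 0.000779) and the talin-binding KANK2 (-0.73, 0.0943, 0.00108). TNS3 had 7761, 9901 and 6971 counts in vector and 4298, 3618 and 4537 in oeRNF112, and PARVA had 5825, 5883 and 5079 and then 3420, 3128 and 3317, with no overlap in either. TNS1, another tensin, was higher at a low level (0.999, 0.183, 0.00595; mean RPKM 0.201 and 0.429), so the tensins did not move one way. The other 3 higher genes, named after their values were seen, were TES (0.51), the scaffold PXN (0.29) and the paxillin-binding GIT1 (0.28). The talin TLN1 (-0.06, adjusted p = 0.722), the kindlin FERMT2 (0.11, 0.421), vinculin VCL (0.01, 0.944) ILK (-0.25, 0.113) and the focal adhesion kinase PTK2 (0.14, 0.283), named for their roles, did not pass.

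At the membrane, integrins lie beside tetraspanins, syndecans and caveolin. Of 16 such partners tested, 3 were higher and 3 lower (37.5% called, against 18.1% of all genes), with a median log2 fold change of 0.01. CAV1, the coat protein of caveolae, went from 30865, 28470 and 26807 counts to 18717, 18226 and 17092 (-0.75, standard error 0.0906, adjusted p = 0.000753 in edgeR's test). The tetraspanin CD82 (-0.62, 0.00823) and the syndecan SDC1 (-0.39, 0.0155) were lower too. PLAUR, the urokinase receptor and a lateral partner of ITGA5 with ITGB1, was higher, with 3244, 2720 and 3431 counts in vector and 5303, 6216 and 4881 in oeRNF112 (0.72, standard error 0.128, adjusted p = 0.00483). The tetraspanin CD9 (0.38, adjusted p = 0.0182) and the syndecan SDC4, which acts with ITGA5 on fibronectin (0.36, adjusted p = 0.0233), were higher as well. Tetraspanins and syndecans were thus each found in both directions.

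Other genes switch integrins off or carry them through endosomes. Of 18 tested, 1 was higher and 1 lower (11.1% called, against 18.1% of all genes), and their median log2 fold change was 0.04. With library totals 5 were higher and 0 lower. RAB21, a small GTPase that binds alpha tails and takes integrins up, was higher (0.31, standard error 0.0827, adjusted p = 0.0308 in edgeR's test). SNX17, a sorting protein that returns beta chains to the surface, was lower (-0.39, 0.114, 0.0420). SWAP70, RAB5A, DAB2 and RAP1B, next by p-value, had log2 fold changes from 0.24 to 0.31 and did not pass, with adjusted p from 0.0618 to 0.0703.

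**Figure D4:**
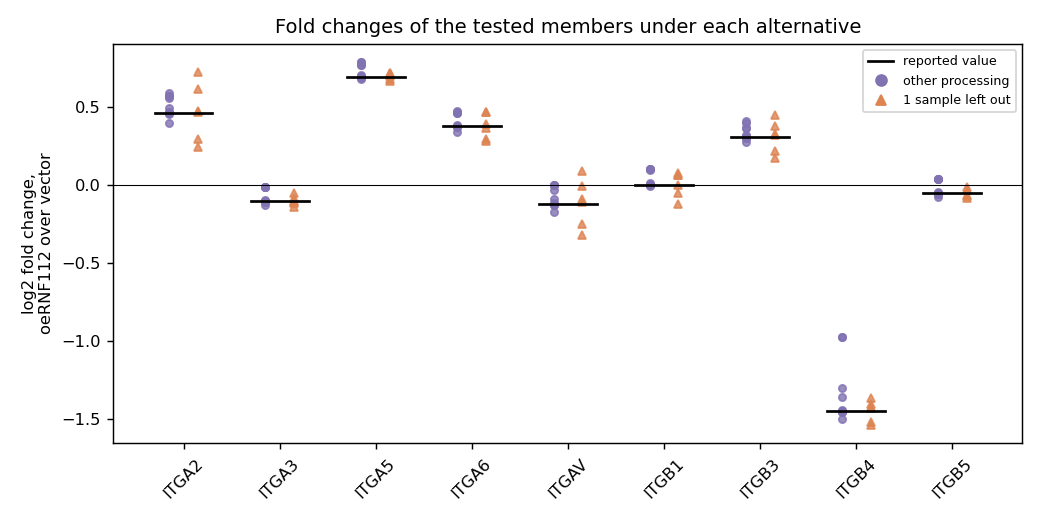
Log2 fold change of each tested member under each alternative analysis and with each sample left out. ITGA5 stays between 0.66 and 0.79 and ITGB4 between -1.54 and -0.97, and the other 7 members lie between -0.32 and 0.72.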

How the data were processed

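RNA of T24 cells was sequenced from 3 vector and 3 oeRNF112 samples. The authors deposited a table of raw read counts and a table of RPKM values. The submitters' processing notes name Trimmomatic 0.36, featureCounts of Subread 1.5.1 and GRCh38. The aligner, the annotation and the strand setting are not given in the sources used here. The RPKM were the counts rescaled by library total and 1 length per gene, for 23152 of 23152 genes (relative tolerance 0.001), and 0 pairs of samples were identical.

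Counts were tested with edgeR 4.0.16 in R 4.3.3 (its filter on low counts, TMM factors, quasi-likelihood test) over all 14467 genes passing the filter, with Benjamini-Hochberg adjustment. The standard error is the absolute log2 fold change divided by the square root of the F statistic. Ratios of RPKM were tested by exact permutation. A planned ratio of ITGB6 to ITGB5 was not computed because ITGB6 was at 0 in 1 sample. Genes named are RNF112, the members, the detected other integrins, hyphenated transcripts of members, cell type markers and up to 6 genes per list with the smallest p-values, and exceptions are stated. A result that this rule would name is not reported here. The members and lists were chosen with earlier results of these data known. Alternatives were DESeq2 1.42.0, limma 3.58.1 on log2(RPKM + 1) or log2(RPKM + 0.1), other scaling and filters (none, at least 10 counts in every sample, a mean RPKM of at least 1), a replicate block, each sample left out, and, added after seeing the data, removal of the trend with gene length (loess, span 0.3). The fits were tested on simulated data. The study's methods describe plasmid transfection for overexpression and, for the animal experiments, T24 lines made with lentivirus. They do not say which of these was used for RNA sequencing. Coordinates and promoter windows come from RefSeq (GRCh38.p14), and overlaps from GENCODE v29.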

Additional observations from a re-analysis of the deposited data

How the results depend on the processing

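With 3 samples a group, small differences in the members with wide spread (ITGA2, ITGAV, ITGB3) could not be resolved, and p-values of the ratios could not pass 0.05. ITGA5 and ITGB4 kept direction and call throughout. Members called higher were 2 (ITGA5 and ITGA6) under library totals, DESeq2, no filter, the 3 limma analyses and removal of the length trend. Genes called were 4137 with the length trend removed and 876 with the replicate block. Under the block 2 members were called and the ITGB4 to ITGB1 difference was -1.45. Same-numbered samples did not deviate together (correlations -0.18, -0.54 and -0.45). The deviations were centred within groups of 3, so these correlations cannot decide whether the numbers pair the samples. ITGA1, ITGAE and ITGAX lost their calls under the block (adjusted p = 0.0933, 0.133 and 0.0882 in edgeR's test). With library totals the all-gene median of the log2 fold change was 0.10, against 0.00, with 2020 higher and 659 lower genes. With a pseudocount of 1 on RPKM the ITGB4 to ITGB1 difference was -1.08.

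Counts of calls in the gene lists moved more. Plaque proteins called higher (4) were 8 with DESeq2, 11 with library totals, 9 with the length trend removed, 9, 8 and 7 in the limma analyses (in the order of log2(RPKM + 1), log2(RPKM + 0.1) and a mean RPKM of at least 1) and 1 under the block. Traffic genes called higher (1) were 4 with the length trend removed, 5 with library totals and the limma analyses and 0 with no filter or the block, and called lower (1) were 2 with the length trend removed and 0 with library totals, limma or the block. Ligands called higher (9) were 4 under the block, and called lower (1) were 3 with the length trend removed and 0 with library totals, at least 10 counts, limma or the block. Hemidesmosome genes called higher (3) were 1 under the block, and called lower (1) were 2 with the length trend removed. Lateral partners called higher (3) were 5 with the length trend removed and 1 under the block. Other integrins called higher (2) were 1 with at least 10 counts or a limma analysis and 0 under the block, and called lower (2) were 1 with library totals, limma and the block. Marker calls were epithelial 1 higher and 2 lower (0 to 1 and 0 to 3 over the alternatives), mesenchymal 1 and 2 (0 to 1 and 0 to 2) and leukocyte 1 and 1 (lower 0 to 1). With each sample left out, plaque proteins called higher were 2 to 6, traffic genes 0 to 3 and 0 to 1 lower, ligands 5 to 9 and 0 lower, hemidesmosome genes 2 to 5, lateral partners 1 to 4, other integrins 0 to 3 and 0 to 2 lower.

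Some values near 0 changed sign. ITGB1 was at -0.0031 (DESeq2-type factors), -0.0063 (DESeq2) and -0.0030 (length trend removed). ITGB5 was at 0.0397 (library totals) and at 0.0380, 0.0390 and 0.0380 in the limma analyses (pseudocounts 1 and 0.1, mean RPKM of at least 1). ITGAV was at 0.00040, 0.00186 and 0.00040 in these, and ITGA4 at -0.0430 with the length trend removed. Leaving out each sample in turn gave 1061 to 3387 genes called (1061 without vector 1, 1263 without oeRNF112 1, 1446 without oeRNF112 3), 2 to 5 members called and 1 to 4 called higher, 4 without vector 2 and 2 without oeRNF112 2. It gave log2 fold changes of -0.320 to 0.0887 for ITGAV (0.0887 without vector 2), -0.120 to 0.0786 for ITGB1 (-0.120 without vector 3 and -0.0546 without oeRNF112 1) and -0.131 to 0.153 for ITGA4 (-0.116 without vector 2 and -0.131 without oeRNF112 2). Beyond the settings themselves, the cause was not tested.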
